A study of Mus musculus with 8 samples.

Results

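The genes described here are 32 genes of the p53 pathway in mouse embryonic stem cells: Trp53, which encodes p53, and 31 genes known as direct targets of p53. They were chosen by symbol as known pathway genes, with earlier results of these data in view, and each had to reach at least 10 counts in at least 2 of 8 RNA sequencing libraries. All 32 listed genes met that rule, as did 18140 of the 43346 genes in the count tables. The study concerned TRIM71, an RNA-binding protein of embryonic stem cells, and Mbnl1, which encodes a splicing regulator. Total RNA was sequenced with strand information and 75 nt paired-end reads.

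All cells shared a (129xC57BL/6) background and the genotype Rosa26Cre-ERT2/BirA-V5, so that the controls also carried an inducible Cre recombinase and a tagged biotin ligase at Rosa26. They were grown on gelatin in serum and LIF, with no treatment. The 4 groups had 2 libraries each: these parental cells (called wild type here), TRIM71-/- cells (the knockout), cells homozygous for the altered 3' untranslated region of Mbnl1, 3'UTR(mut)/3'UTR(mut) (the mutant), and cells with stable transfection of MBNL1::T2A::Puromycin (overexpression). Whether each library came from its own culture, and whether a line is 1 clone, is not stated in the labels. The p-values therefore measure only the spread between these libraries, and a difference between clones cannot be told apart from an effect of genotype. In bulk RNA, fewer cells of a type and less of a transcript per cell cannot be told apart either.

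p53 is a transcription factor that binds a consensus of paired decamers and activates genes for cell cycle arrest, apoptosis, DNA repair and metabolism after damage or other stress. Its protein is kept low by the ubiquitin ligase Mdm2, itself a p53 target, so that activity is set largely by the stability and modification of the protein and not by the level of its mRNA. Mouse embryonic stem cells hold comparatively much p53, have a short G1 phase and express little p21.

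The p53 consensus was looked for in RefSeq promoter windows (GRCm38.p6, 250 bases before to 50 after the start of transcription), to show which of the promoters hold letters close to the sequence that p53 binds. A match had 2 decamers of 10 bases with both cores kept, a spacer of at most 3 bases and at most 3 of 20 letters off; the consensus is its own reverse complement, so each match covers both strands. Windows were present for 24 of the 32 genes and not for Rrm2b, Trp53inp1, Zmat3, Pmaip1, Ddb2, Xpc, Tnfrsf10b and Perp. Of the 32 windows of those 24 genes (some have several starts), 8 held a match (25.0%), against 2.21% of 32851 windows of all genes. The 8 windows belong to 7 genes. Their matches are shown 5′ to 3′ on the strand of the gene, with the cores of the decamers in capitals.
Cdkn1a, chr17:29090928-29090947, 19 of 20 letters matching, strand +: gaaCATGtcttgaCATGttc
Gtse1, chr15:85859945-85859964, 19 of 20, strand +: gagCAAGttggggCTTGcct
Gtse1, chr15:85859955-85859975, 19 of 20, spacer 1, strand +: gggCTTGcctctgaCTTGcct
Bax, chr7:45467079-45467099, 18 of 20, spacer 1, strand -: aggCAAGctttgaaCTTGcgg
Sesn1, chr10:41887253-41887275, 18 of 20, spacer 3, strand +: gcgCTTGgccttcaagCTTGttt
Aen, chr7:78895937-78895956, 17 of 20, strand +: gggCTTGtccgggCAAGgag
Bbc3, chr7:16309486-16309505, 17 of 20, strand +: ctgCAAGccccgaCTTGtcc
Trp53, chr11:69580284-69580303, 17 of 20, strand +: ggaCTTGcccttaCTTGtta
The Cdkn1a match began 51 bases before the RefSeq start of transcription used for its window, and the first Gtse1 match began 1 base before that of Gtse1. The Cdkn1a start used lies at the upstream end of the annotated gene (29090976 to 29100727). Which start these cells used was not examined. A match is a description of the letters and not a bound site, and a window without one says nothing of sites elsewhere in the gene.

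Total counts ranged from 75056306 to 86508533 per library. Mitochondrial genes took 1.336 to 1.606% of the counts and loci resembling ribosomal RNA 2.239 to 4.821%. Trim71 stood at 630 and 628 CPM (counts scaled to sequencing depth with TMM factors) in wild type and at 101 and 105 in the knockout. Mbnl1 stood at 25.9 and 26.1 CPM in wild type, at 48.8 and 50.9 in the knockout, at 28.6 and 27.4 in the mutant and at 193 and 195 in overexpression. The Mbnl1 difference between mutant and wild type (log2 0.11) did not pass edgeR's test (adjusted p = 0.086), and counts per gene do not show the mutated sequence. The 12 markers of embryonic stem cells were present in every group, with a summed level of 6480 to 6520 CPM in wild type and 7200 to 7670 in the altered lines. Changes below are log2 differences from edgeR's quasi-likelihood test on all 4 groups. A gene is called at a Benjamini-Hochberg adjusted p under 0.05 over 18055 genes. With 2 libraries a group, 0.333 is the smallest two-sided p of an exact permutation test.

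More p53 targets fell than rose in each of the 3 altered lines, with the most falls in the knockout, while Trp53 mRNA itself differed little. In the knockout 22 of the 32 genes fell and 5 rose, where 20.9% of all tested genes fell and 24.2% rose. In the mutant 15 fell and 1 rose, against 7.69% and 8.32% of all genes. In overexpression 21 fell and 6 rose, against 27.2% and 27.7% of all genes. The median log2 difference of the 32 genes was -0.43 in the knockout (1.35-fold lower), -0.18 in the mutant (1.13-fold) and -0.30 in overexpression (1.23-fold), where the median over all genes lay at -0.01 or nearer to 0. Since the genes were chosen with earlier results of these data known, these counts describe the list and are not independent evidence of its direction. The lines are compared with the same wild-type libraries, so a high value there would lower all 3 comparisons.

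Counted without a test, both libraries of the knockout lay below both of wild type for 24 genes and above them for 5, as they did for 36.3% and 37.0% of all genes. In the mutant this held for 21 and 6 genes (27.0% and 24.9% of all genes), and in overexpression for 24 and 6 (38.8% and 37.7%). Wild type had the highest mean for 22 of the 32 genes, against 22.3% of all genes. The knockout had the lowest mean for 20, against 28.0%. The libraries of a group were close: the median distance between replicates over the 32 genes was 0.057 log2 units for wild type, 0.031 for the knockout, 0.053 for the mutant and 0.049 for overexpression. All 22 calls of a fall in the knockout held under every alternative that tested the gene, as did 13 of 15 in the mutant and 18 of 21 in overexpression.

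**Figure D1:**
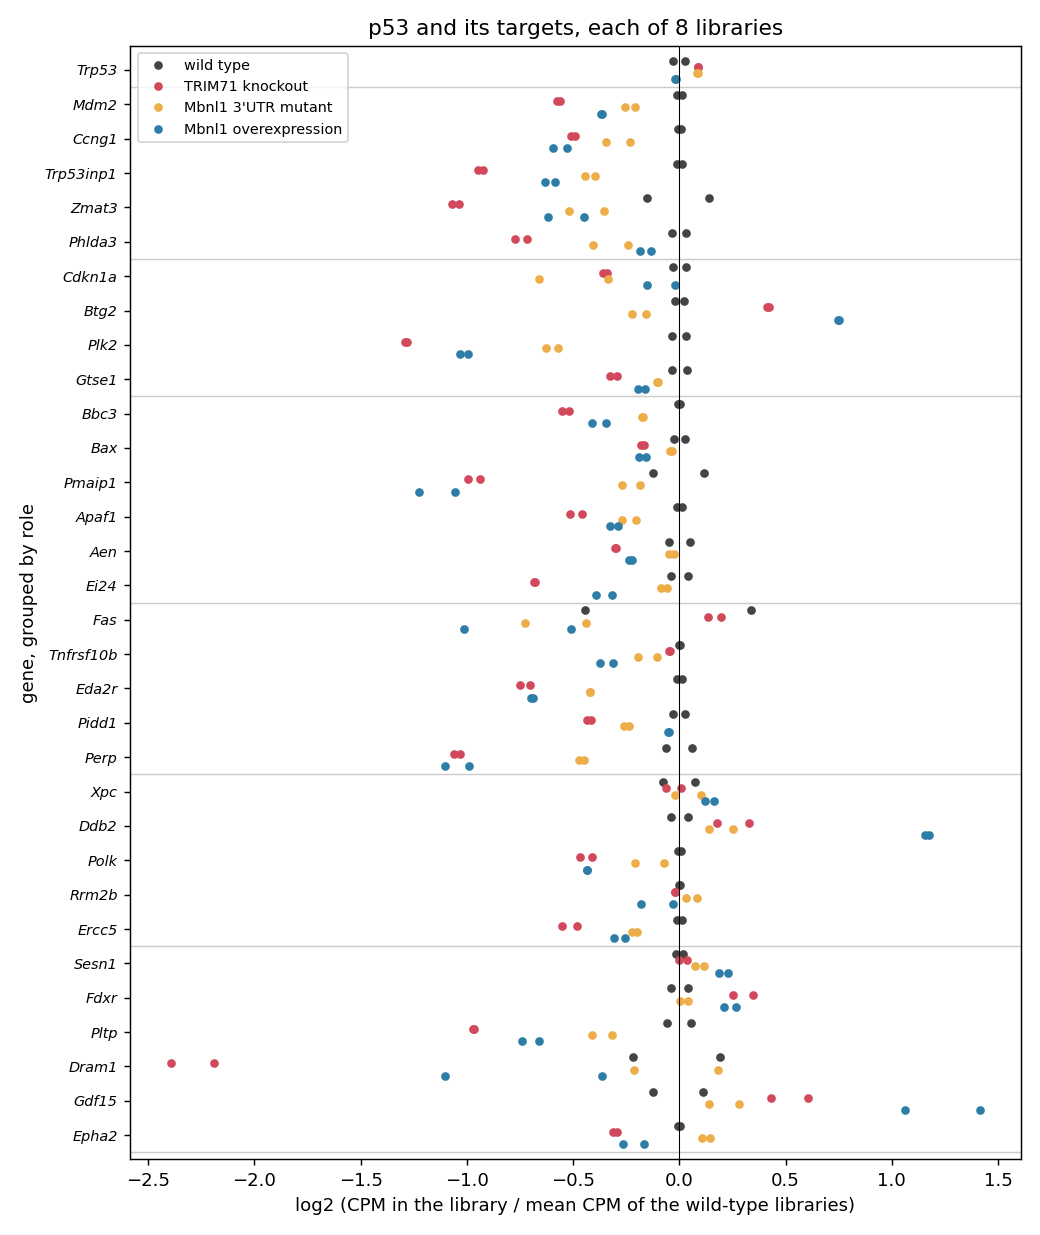
Level of p53 and its targets in each of the 8 libraries, as log2 of CPM over the mean CPM of the wild-type libraries (horizontal axis), 1 row per gene and 1 point per library, with horizontal lines between roles. Knockout points (red) lie furthest left for most genes, while Btg2, Ddb2 and Gdf15 lie to the right in the knockout and overexpression.

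Levels between genes were compared per length of exon, as reads scaled to exon length and depth (RPKM) in wild type. The median of the 32 genes was 11.3 RPKM, against 2.45 over 17909 tested genes with a length. Bax (98.2), Ccng1 (83.5), Gtse1 (73.5) and Epha2 (68.0) were the highest targets, and Trp53 stood at 53.1 RPKM. Fas (0.0874), Dram1 (0.382) and Rrm2b (0.907) were the lowest. Cdkn1a, which encodes p21, stood at 3.16 RPKM.

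Trp53 was at 219 and 211 CPM in wild type, at 228 and 228 in the knockout, at 228 and 228 in the mutant and at 212 and 211 in overexpression. All 8 libraries thus lay within a narrow band, and wild type overlapped with overexpression. The knockout exceeded wild type by a log2 difference of 0.09 (SE 0.033, adjusted p = 0.0414 by edgeR). That call was lost under 7 of 15 alternatives, among them leaving out wild-type replicate 2 or either knockout replicate, with adjusted p up to 0.251. Neither the mutant (0.09, adjusted p = 0.0956) nor overexpression (-0.02, adjusted p = 0.643) passed the test.

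The 5 targets that act back on p53 or on survival signalling fell in both the knockout and overexpression, and 4 of them fell in the mutant. The shares of all genes that fell were 20.9%, 27.2% and 7.69% in these lines. Mdm2, the ubiquitin ligase of p53, was at 149 and 152 CPM in wild type, at 101 and 102 in the knockout, at 130 and 126 in the mutant and at 116 and 117 in overexpression. The 4 groups did not overlap. Its log2 difference from wild type was -0.57 (SE 0.035, adjusted p = 5.87e-10 by edgeR) in the knockout, -0.23 (adjusted p = 0.000118) in the mutant and -0.37 (adjusted p = 6.99e-08) in overexpression. Trp53inp1 encodes a stress protein that promotes p53 activity. It stood at 228 and 224 CPM in wild type, at 117 and 119 in the knockout, at 172 and 166 in the mutant and at 150 and 146 in overexpression, again without overlap. It fell by 0.94, 0.42 and 0.61 log2 units in these lines (adjusted p = 1.34e-12, 1.82e-07 and 1.06e-10 by edgeR).

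Ccng1 encodes cyclin G1, which brings a phosphatase to Mdm2. It went from 292 and 294 CPM in wild type to 208 and 206 in the knockout, to 249 and 230 in the mutant and to 203 and 194 in overexpression, and here overexpression had the lowest mean, though it and the knockout were not called different (0.06). Phlda3, a repressor of the kinase Akt, was at 57.4 and 54.9 CPM in wild type, at 32.9 and 34.1 in the knockout, at 42.3 and 47.4 in the mutant and at 49.4 and 51.1 in overexpression. Its fall was 1.68-fold in the knockout (adjusted p = 2.62e-09 by edgeR) and 1.12-fold in overexpression (adjusted p = 0.0117). The call in overexpression was lost without wild-type replicate 1 (adjusted p = 0.104), without overexpression replicate 1 (0.136) and with scaling by library size alone (0.0848).

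Zmat3 encodes a zinc-finger RNA-binding protein and varied more than the others. Its libraries stood at 92.8 and 75.8 CPM in wild type, at 41.1 and 40.1 in the knockout, at 58.8 and 66.0 in the mutant and at 54.9 and 61.7 in overexpression. Every library of the altered lines lay below both wild-type libraries, and the mutant overlapped with overexpression. The difference from wild type was -1.05 in the knockout (SE 0.124, adjusted p = 0.00158 by edgeR) and -0.53 in overexpression (adjusted p = 0.0155), but the mutant was not called (-0.43, adjusted p = 0.0818). The mutant was called without wild-type replicate 2, with library size alone and in DESeq2 (adjusted p = 0.00127 to 0.0366). The call in overexpression was lost without overexpression replicate 1 (adjusted p = 0.0635) and in a fit of the 2 groups alone (0.0706).

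**Figure D2:**
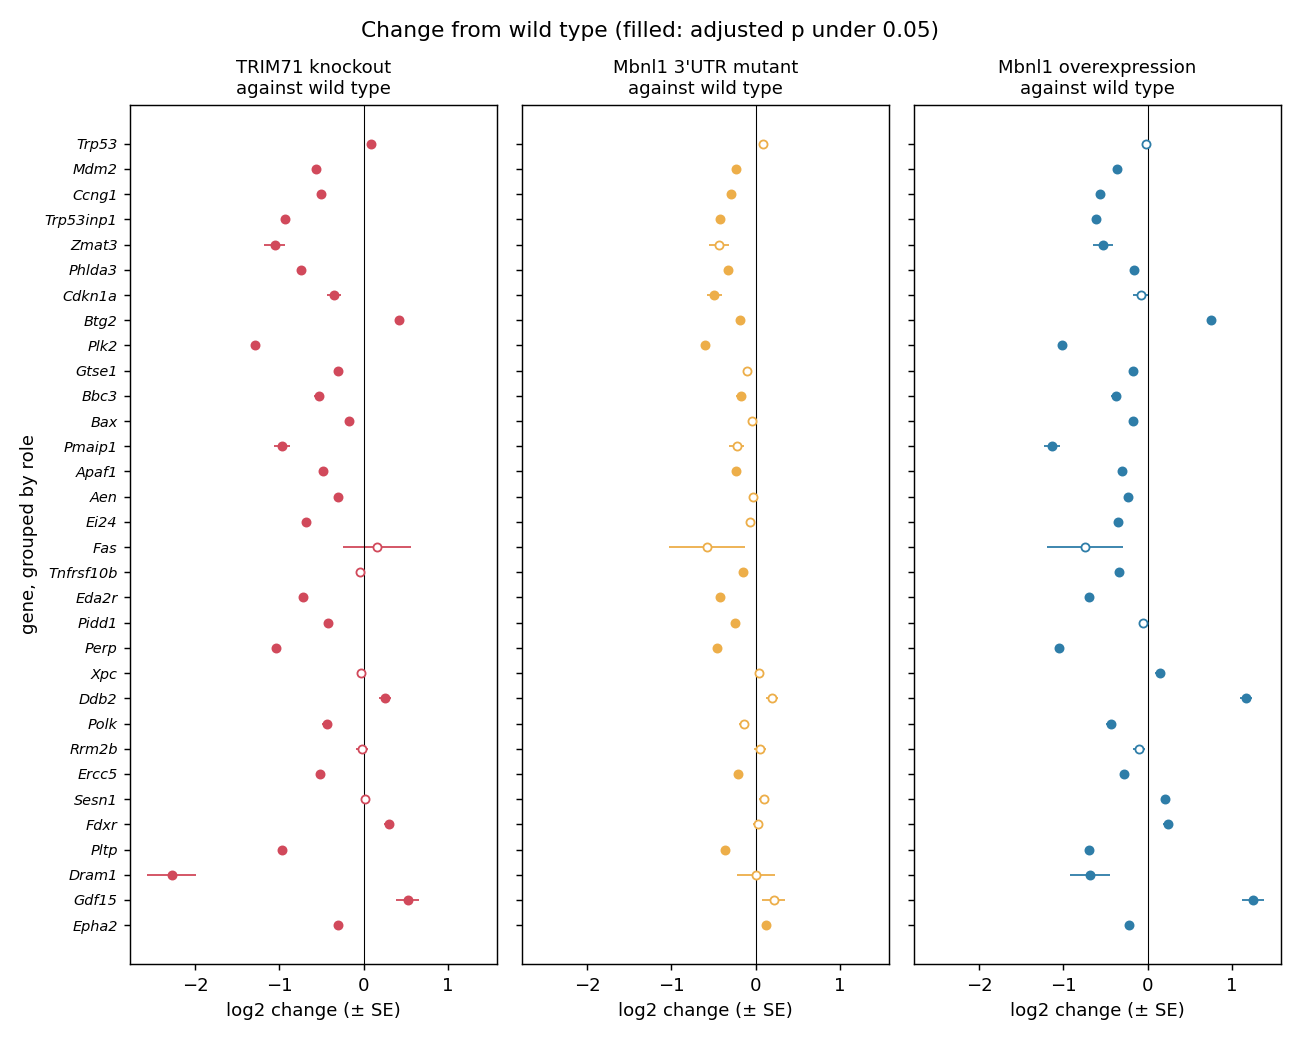
Log2 change from wild type (horizontal axis, ± SE of the model) of p53 and its targets in the knockout, the mutant and overexpression, 1 gene per row; filled points passed edgeR's test at an adjusted p under 0.05. The falls of Mdm2, Ccng1, Trp53inp1, Plk2, Eda2r, Perp and Pltp were among those called in all 3 panels, and the largest single value is Dram1 in the knockout at -2.28.

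Among the 4 targets that act on the cell cycle, Plk2 fell most and Btg2 went the other way. Plk2, a polo-like kinase induced by stress, was at 60.2 and 57.5 CPM in wild type, at 24.2 and 24.1 in the knockout, at 39.6 and 38.1 in the mutant and at 28.8 and 29.5 in overexpression. No groups overlapped. It was 2.44-fold lower in the knockout (log2 -1.29, SE 0.045, adjusted p = 5.17e-13 by edgeR), 1.52-fold lower in the mutant (adjusted p = 3.91e-08) and 2.02-fold lower in overexpression (adjusted p = 2.93e-12). Btg2 encodes an antiproliferative protein that recruits the deadenylase complex to mRNAs. It stood at 37.4 and 38.5 CPM in wild type, at 50.5 and 50.7 in the knockout, at 32.5 and 34.0 in the mutant and at 63.7 and 63.8 in overexpression. The mutant thus lay below wild type and the other lines above it. Btg2 rose 1.34-fold in the knockout (log2 0.42, adjusted p = 2.38e-07 by edgeR) and 1.68-fold in overexpression (0.75, adjusted p = 5.49e-11), and fell 1.14-fold in the mutant (-0.19, adjusted p = 0.00406).

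Cdkn1a encodes the CDK inhibitor p21, and its mRNA has been reported as a target of TRIM71. Its libraries stood at 11 and 11.4 CPM in wild type, at 8.74 and 8.85 in the knockout, at 7.08 and 8.87 in the mutant and at 11.1 and 10.1 in overexpression. The knockout and mutant lay below wild type and overlapped with each other, while overexpression overlapped with wild type. Cdkn1a fell 1.28-fold in the knockout (log2 -0.35, SE 0.086, adjusted p = 0.00328 by edgeR) and 1.41-fold in the mutant (-0.49, SE 0.087, adjusted p = 0.000846). In overexpression its difference of -0.08 was not called (adjusted p = 0.427). The knockout and the mutant differed by 0.14, which was not called (adjusted p = 0.217) but was called without mutant replicate 2 (adjusted p = 0.00708). Gtse1 encodes a microtubule-binding protein that takes p53 out of the nucleus. It was at 206 and 196 CPM in wild type, at 161 and 164 in the knockout, at 188 and 187 in the mutant and at 176 and 180 in overexpression, and was called in the knockout (-0.31) and overexpression (-0.18) but not in the mutant (-0.10, adjusted p = 0.0561 by edgeR). Cdkn1a and Gtse1 hold the closest matches to the p53 consensus printed above.

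All 6 members grouped here under mitochondrial apoptosis fell in both the knockout and overexpression, and 2 of them, Bbc3 and Apaf1, in the mutant. Of all genes, 20.9% fell in the knockout, 27.2% in overexpression and 7.69% in the mutant. Other genes of apoptosis, given below, moved in both directions. Pmaip1 encodes Noxa and Bbc3 encodes Puma, both BH3-only proteins that release the killing step from its inhibitors. Pmaip1 was at 111 and 131 CPM in wild type, at 63.1 and 60.5 in the knockout, at 106 and 100 in the mutant and at 58.0 and 51.7 in overexpression. The mutant lay just under wild type, and the other lines lay far under both. Pmaip1 fell by 0.97 log2 units in the knockout (SE 0.093, adjusted p = 0.000245 by edgeR) and by 1.14 in overexpression (SE 0.093, adjusted p = 7.39e-05). In the mutant the difference of -0.23 was not called (adjusted p = 0.173), though it was without wild-type replicate 1 (adjusted p = 0.00265). Bbc3 was at 16.7 and 16.6 CPM in wild type, at 11.3 and 11.6 in the knockout, at 14.7 and 14.8 in the mutant and at 13.1 and 12.5 in overexpression, with no overlap. Its fall was 1.45-fold in the knockout and 1.3-fold in overexpression (adjusted p = 4.97e-07 and 1.4e-05 by edgeR). The 1.13-fold fall in the mutant (adjusted p = 0.0376) was lost under 10 of 15 alternatives, including each of the 8 that left out 1 library, with adjusted p from 0.0511 to 0.172.

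Ei24 encodes a protein of the endoplasmic reticulum. It stood at 82.1 and 86.9 CPM in wild type, at 52.7 and 52.6 in the knockout, at 81.1 and 79.5 in the mutant and at 67.7 and 64.4 in overexpression. The mutant stood close to wild type (-0.07, adjusted p = 0.256 by edgeR), and the fall was 1.60-fold in the knockout and 1.28-fold in overexpression. Apaf1 encodes the scaffold of the apoptosome. It went from 70.3 and 69.3 CPM to 48.8 and 50.9 in the knockout, to 57.8 and 60.6 in the mutant and to 57.0 and 55.6 in overexpression, and was called in all 3. Aen, a nuclease of apoptotic cells, was at 116 and 108 CPM in wild type, at 91.1 and 91.2 in the knockout, at 110 and 109 in the mutant and at 96.2 and 95.3 in overexpression. Bax, which forms the pore in the outer mitochondrial membrane, moved least of the 6 in the knockout and overexpression. Its level went from 158 and 152 CPM to 137 and 138 in the knockout, to 151 and 150 in the mutant and to 136 and 139 in overexpression. The fall of Bax by 0.17 log2 units was nonetheless called in the knockout (adjusted p = 0.000533 by edgeR) and in overexpression (adjusted p = 0.000384). Bax shares 192 exon bases on its own strand with Gm45808, which the count tables do not list and which thus has no counts there. Whether reads of Bax were left uncounted for that overlap was not tested.

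Of the 5 death receptor and membrane targets, 4 fell in the mutant and 3 in each of the other lines. Among all genes 7.69% fell in the mutant, 20.9% in the knockout and 27.2% in overexpression. Perp encodes a tetraspan protein of desmosomes that takes part in p53-dependent apoptosis. It was at 82.5 and 75.9 CPM in wild type, at 38.8 and 37.9 in the knockout, at 58.1 and 57.1 in the mutant and at 36.9 and 39.8 in overexpression. The knockout and overexpression overlapped, each 2.07-fold below wild type (log2 -1.05, adjusted p = 1.44e-11 and 4.83e-12 by edgeR), and the mutant lay between (-0.46, adjusted p = 1.96e-06). Eda2r, a receptor for ectodysplasin A2, showed a like pattern, at 79.7 and 81.1 CPM in wild type, at 49.4 and 47.8 in the knockout, at 60.1 and 60.1 in the mutant and at 49.8 and 49.5 in overexpression. Its fall was 1.65-fold in the knockout, 1.34-fold in the mutant and 1.62-fold in overexpression (adjusted p = 7.42e-11, 4.42e-07 and 4.98e-11 by edgeR).

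Pidd1, which activates caspase-2, fell in the knockout and the mutant and not in overexpression. Its libraries stood at 30.0 and 31.2 CPM in wild type, at 22.9 and 22.6 in the knockout, at 25.9 and 25.5 in the mutant and at 29.6 and 29.4 in overexpression. The log2 difference was -0.43 in the knockout (adjusted p = 7.21e-07 by edgeR), -0.25 in the mutant (adjusted p = 0.000864) and -0.05 in overexpression, which was not called. Tnfrsf10b, a TRAIL death receptor, showed another order, at 31.6 and 31.5 CPM in wild type, at 30.6 and 30.7 in the knockout, at 27.6 and 29.3 in the mutant and at 25.4 and 24.4 in overexpression. It fell in overexpression (-0.34, adjusted p = 8.22e-06 by edgeR) and in the mutant (-0.15, adjusted p = 0.038), though the latter call was lost under 11 of 15 alternatives (adjusted p 0.0507 to 0.245). The knockout was not called (-0.04, adjusted p = 0.473). Fas, the other death receptor, ranged from 0.0892 to 0.228 CPM over the 8 libraries, with 8 to 18 counts per library, and no difference was detectable at this depth.

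The 5 repair and nucleotide supply genes did not move as a group. Ddb2 and Xpc recognise damage for nucleotide excision repair, and Ercc5 is the endonuclease that cuts on one side of it. Ercc5 was at 55.9 and 55.0 CPM in wild type, at 39.7 and 37.8 in the knockout, at 48.2 and 47.5 in the mutant and at 46.4 and 44.8 in overexpression. It fell in all 3 lines, by 0.52, 0.21 and 0.28 log2 units (adjusted p = 2.17e-08, 0.00159 and 1.61e-05 by edgeR). Polk, a polymerase that copies past damaged bases, stood at 22.9 and 23.1 CPM in wild type, at 17.3 and 16.6 in the knockout, at 21.9 and 19.9 in the mutant and at 17.0 and 17.0 in overexpression. Its fall was called in the knockout and in overexpression, by 0.44 log2 units in each. Xpc (31.3 to 37.0 CPM over all libraries) was called in overexpression alone (0.14, adjusted p = 0.037 by edgeR). That call was lost without wild-type replicate 1 (adjusted p = 0.367), without overexpression replicate 1 (0.147) or 2 (0.0665) and in DESeq2 (0.0697). Rrm2b, the p53-induced subunit of ribonucleotide reductase, ranged from 7.30 to 8.77 CPM and was not called in any line.

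Ddb2 was the target that stood furthest above wild type in relative terms beside Gdf15. It was at 7.50 and 7.93 CPM in wild type, at 8.74 and 9.69 in the knockout, at 9.20 and 8.5 in the mutant and at 17.2 and 17.4 in overexpression. Every library of the altered lines lay above both wild-type libraries, and those of overexpression lay far above the rest. Ddb2 rose 2.24-fold in overexpression (log2 1.17, SE 0.068, adjusted p = 1.53e-10 by edgeR) and 1.19-fold in the knockout (0.26, adjusted p = 0.00738), a call lost without wild-type replicate 1 (adjusted p = 0.061) or knockout replicate 2 (0.124). Genes near it were higher too, with a median log2 difference of 0.58 in overexpression over the 64 tested genes within 5 Mb of Ddb2 on chromosome 2. The median over 1498 genes of chromosome 2 was 0.32 in overexpression, while the other chromosomes had medians from -0.19 to 0.06. The part of this chromosome-wide shift in the Ddb2 value was not tested. Ddb2 also shares 652 exon bases (23.83%) with Acp2 on the opposite strand, and the strand setting of the counting is not given in the sources used here.

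**Figure D3:**
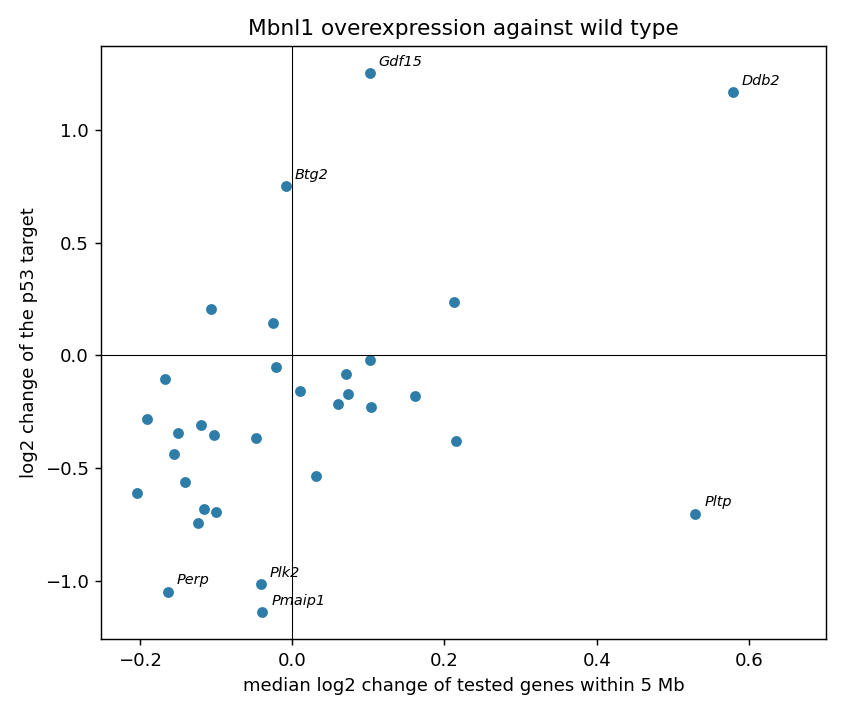
Log2 change of p53 and each of its targets in overexpression against wild type (vertical axis) against the median log2 change of the tested genes within 5 Mb (horizontal axis), 1 point per gene. Ddb2 and Pltp on chromosome 2 stand apart on the right, with neighbour medians of 0.58 and 0.53, and lie on opposite sides of 0 themselves.

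The other member on chromosome 2, Pltp, encodes a phospholipid transfer protein of plasma. Its 112 tested neighbours had a median of 0.53 in overexpression, yet Pltp itself fell there. It was at 90.2 and 83.3 CPM in wild type, at 44.3 and 44.3 in the knockout, at 65.3 and 69.6 in the mutant and at 54.8 and 51.9 in overexpression, with no overlap between groups. The fall was 1.96-fold in the knockout, 1.29-fold in the mutant and 1.63-fold in overexpression (adjusted p = 2.91e-11, 2.13e-05 and 6.47e-10 by edgeR). Pltp shares 495 exon bases (19.32%) with Ctsa on the opposite strand. Neighbour medians of the other members ranged from -0.20 to 0.22 in overexpression, and those of all members from -0.06 to 0.14 in the knockout and -0.08 to 0.06 in the mutant. Without Ddb2 and Pltp, 20 of 30 genes fell and 5 rose in overexpression, against 27.2% and 27.7% of all genes. That count was made after seeing the data.

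The metabolic, lysosomal and signalling targets were mixed, with 3 falls and 2 rises among 6 genes in the knockout and 3 of each in overexpression. For all genes the shares were 20.9% and 24.2% in the knockout, and 27.2% and 27.7% in overexpression. Dram1, a lysosomal membrane protein that promotes autophagy, had the largest change of the 32 genes. It stood at 1.00 and 1.33 CPM in wild type, at 0.221 and 0.255 in the knockout, at 1.00 and 1.32 in the mutant and at 0.903 and 0.541 in overexpression. Its counts were low, at 79 and 100 in wild type and at 19 and 21 in the knockout. The mutant overlapped with wild type, and the knockout lay below all other libraries. Dram1 was 4.86-fold lower in the knockout (log2 -2.28, SE 0.292, adjusted p = 6e-06 by edgeR). In overexpression it was 1.60-fold lower (-0.68, SE 0.238, adjusted p = 0.0222), a call lost without wild-type replicate 2 (adjusted p = 0.204), without overexpression replicate 2 (0.265) and in DESeq2 (0.092).

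Gdf15, a secreted stress cytokine, rose where most targets fell. It was at 2.34 and 2.76 CPM in wild type, at 3.44 and 3.88 in the knockout, at 3.10 and 2.81 in the mutant and at 6.80 and 5.33 in overexpression. All libraries of the altered lines lay above wild type, and overexpression lay highest. The rise was 2.38-fold in overexpression (log2 1.25, SE 0.128, adjusted p = 2.36e-07 by edgeR) and 1.44-fold in the knockout (0.52, SE 0.134, adjusted p = 0.0041). In the knockout the call was lost without wild-type replicate 1 (adjusted p = 0.0569) or knockout replicate 2 (0.0507). The mutant was not called (0.21, adjusted p = 0.343).

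Fdxr, the reductase that feeds electrons to mitochondrial ferredoxin, stood at 12.6 and 13.3 CPM in wild type, at 15.4 and 16.4 in the knockout, at 12.9 and 13.3 in the mutant and at 15.5 and 14.9 in overexpression. It rose in the knockout (0.30, adjusted p = 0.000434 by edgeR) and in overexpression (0.24, adjusted p = 0.00232). The 148 tested genes within 5 Mb of Fdxr had medians of 0.14 and 0.21 in these lines. The part of that regional shift in the Fdxr values was not tested. Sesn1, a sestrin that restrains mTORC1, was called in overexpression, from 20.2 and 19.7 to 22.8 and 23.4 CPM (0.21, adjusted p = 0.00157 by edgeR), with 20.5 and 20 in the knockout and 21 and 21.6 in the mutant. Epha2, an ephrin receptor kinase, was at 319 and 317 CPM in wild type, at 256 and 259 in the knockout, at 342 and 352 in the mutant and at 265 and 283 in overexpression. It fell in the knockout (-0.30, adjusted p = 2.9e-06 by edgeR) and in overexpression (-0.22, adjusted p = 7.49e-05). Epha2 was the 1 member that rose in the mutant (0.13, adjusted p = 0.0243), a call lost under 5 of 15 alternatives, among them leaving out either wild-type replicate, mutant replicate 2 or knockout replicate 2 (adjusted p up to 0.0967).

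Markers of other cell types also moved between the groups. The 10 primitive endoderm markers summed to 334 to 355 CPM in wild type, 356 to 357 in the knockout, 443 to 567 in the mutant and 393 to 422 in overexpression, and none was at 0 in any group. Of these 10, 8 fell and 1 rose in the knockout, 1 fell and 5 rose in the mutant, and 6 fell and 2 rose in overexpression. Falls among all tested genes ran at 20.9% (knockout), 7.69% (mutant) and 27.2% (overexpression). Rises ran at 24.2%, 8.32% and 27.7%, lines in the same order. The transcription factor Gata4 went from 7.98 CPM in wild type to 0.709 in the knockout. Lama1 made up a large part of the endoderm sum in wild type (150 CPM) and the mutant (270 CPM). That sum therefore says little of the markers at a low level. The 10 markers of fibroblasts summed to 67.0 to 69.4 CPM in wild type, 96.7 to 97.3 in the knockout, 89.0 to 92.1 in the mutant and 82.9 to 87.9 in overexpression. Of the 7 that could be tested, 4 rose and none fell in the knockout, 2 rose and 1 fell in the mutant, and 4 rose and 2 fell in overexpression. The 2 fibroblast marker falls in overexpression lay near the share of all genes that fell there. Vim, which many cell types express, made up most of the sum in wild type (63.4 CPM), the knockout (88.0 CPM) and the mutant (86.4 CPM), and Lum was at 0 in every group but the knockout. The 10 neural markers summed to 209 to 216 CPM in wild type and 147 to 182 in the altered lines. Neurog2 was at 0 in wild type and the mutant, and Dcx in overexpression. The part of these cells in the p53 target levels was not tested.

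The lines were compared with each other directly, which tests the differences between their changes. The knockout was called below the mutant for 21 of the 32 genes and above it for 2, against 21.3% and 24.4% of all genes. The median difference was -0.26. Plk2 (-0.69, adjusted p = 1.45e-09 by edgeR), Ei24 (-0.61, adjusted p = 1.75e-09), Pltp (-0.61), Perp (-0.59) and Pmaip1 (-0.74, adjusted p = 0.000871) were lower in the knockout, as was Dram1 (-2.28, adjusted p = 5.08e-06). Btg2 (0.61, adjusted p = 2.15e-09) and Fdxr (0.28, adjusted p = 0.000826) were higher.

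Overexpression was called below the mutant for 17 genes and above it for 7, against 25.4% and 26.7% of all genes. This split became 12 below and 9 above when libraries were scaled by size alone. All genes shifted with that scaling too: 3371 of 18055 were called below the mutant and 5816 above it, with a median of 0.07. With TMM scaling, the 7 members called above the mutant were led by Gdf15 (1.04, adjusted p = 2.06e-06 by edgeR), Ddb2 (0.97) and Btg2 (0.94, adjusted p = 5.27e-12). The other members above it were Cdkn1a (0.41, adjusted p = 0.000872), Fdxr (0.21), Pidd1 (0.20) and Phlda3 (0.16). The largest differences below the mutant were those of Pmaip1 (-0.91, adjusted p = 0.000261), Dram1 (-0.68, adjusted p = 0.0222) and Perp (-0.59, adjusted p = 1.5e-08). The Phlda3 call was lost without mutant replicate 1 or overexpression replicate 2 (adjusted p up to 0.166), and the Dram1 call without mutant replicate 2, without overexpression replicate 2 and in DESeq2 (adjusted p up to 0.266).

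The knockout was called below overexpression for 19 genes and above it for 2, against 27.2% and 27.5% of all genes, with a median difference of -0.17. Dram1 (3.03-fold, adjusted p = 0.000286 by edgeR), Ddb2 (1.88-fold), Gdf15 (1.66-fold), Phlda3 (1.5-fold, adjusted p = 2.75e-08) and Pidd1 (1.3-fold, adjusted p = 1.81e-06) were among the genes lower in the knockout, as were Mdm2 (1.15-fold) and Trp53inp1 (1.25-fold). Tnfrsf10b was higher in the knockout (0.30, adjusted p = 3.84e-05). Trp53 was higher too (0.11, adjusted p = 0.0113), but that call was lost with scaling by library size and without any 1 library of either line (adjusted p up to 0.136). The calls of Zmat3, Cdkn1a, Gtse1, Bbc3 and Xpc were likewise lost under 1 to 4 of 15 alternatives. Leaving out single libraries brought the number of genes lower in the knockout to between 14 and 20. Perp differed between these lines by less than 0.01 (SE 0.048, adjusted p = 0.999), and Ccng1 (0.06), Eda2r (-0.03), Bax, Polk and Pmaip1 (0.17, adjusted p = 0.176) were not called either. A missed threshold does not show that these levels were equal: Pmaip1 was called under 4 alternatives (adjusted p 0.0014 to 0.0129).

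**Figure D4:**
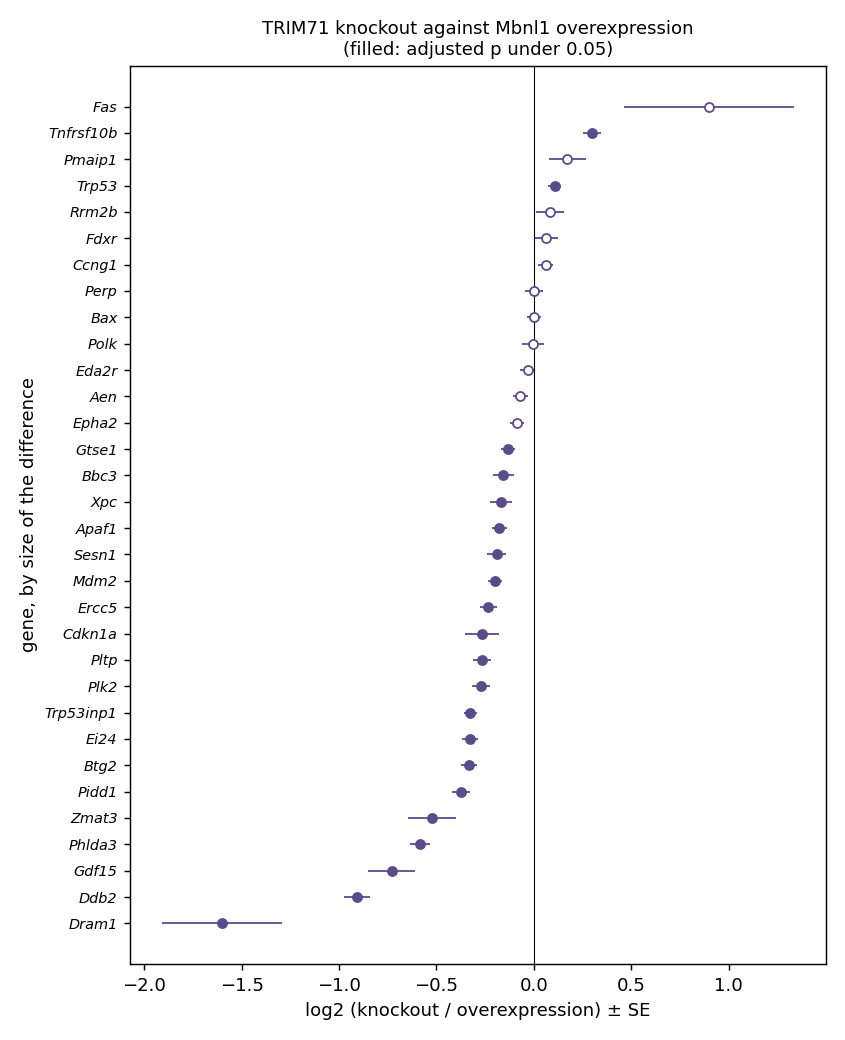
Log2 difference of the knockout from overexpression (horizontal axis, ± SE of the model), 1 gene per row, ordered by size; filled points passed edgeR's test at an adjusted p under 0.05. Points left of 0 are lower in the knockout. Of the filled points, 19 lie on the left, led by Dram1 and Ddb2, and 2 on the right, Trp53 and Tnfrsf10b.

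A second list of 28 further p53 targets, with no gene in common with the 32, had more falls than rises in each line. It was likewise chosen with results of these data known and is not independent support. In the knockout 17 fell and 2 rose, with a median of -0.26, where 20.9% of all genes fell and 24.2% rose. In the mutant 14 fell and 1 rose (median -0.15), against 7.69% and 8.32% of all genes. In overexpression 16 fell and 5 rose (median -0.15), against 27.2% and 27.7%. The p53 relative Trp73 went from 2.83 CPM in wild type to 0.826 in the knockout (log2 -1.77, adjusted p = 3.97e-08 by edgeR), 1.39 in the mutant (-1.03) and 1.09 in overexpression (-1.38). Zfp365 fell 2.49-fold in the knockout (adjusted p = 1.72e-12 by edgeR), and Gls2, the p53-regulated glutaminase, rose 1.70-fold in overexpression (adjusted p = 1.04e-09).

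The 23 tested regulators of p53 moved in both directions, with medians of -0.01, 0.00 and -0.06 in the knockout, the mutant and overexpression. In the knockout 7 fell and 2 rose, against 20.9% and 24.2% of all genes, among the falls the deacetylase Sirt1 (1.43-fold, adjusted p = 7.27e-09 by edgeR) and the acetyltransferases Ep300 (1.35-fold, adjusted p = 0.0194) and Crebbp (1.3-fold, adjusted p = 0.00724). In the mutant 1 fell and 4 rose (7.69% and 8.32% of all genes), led by Cdkn2a (1.76-fold, adjusted p = 0.000124), which encodes the Mdm2 inhibitor Arf and another cell cycle inhibitor. The same gene fell 1.43-fold in the knockout (adjusted p = 0.00443). In overexpression 11 fell and 5 rose, against 27.2% and 27.7% of all genes. The kinases Hipk2, Chek2 and Chek1, which act on p53 or upstream of it, fell 1.60-fold, 1.32-fold and 1.3-fold there, while the kinase Prkdc rose 1.53-fold.

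Other genes of apoptosis moved in both directions. Of 21 BCL2 family members and caspases that are not among the 32, 8 rose and 4 fell in the knockout (median 0.14), 3 rose and 2 fell in the mutant (-0.02), and 8 rose and 5 fell in overexpression (0.11). Over all genes 24.2% rose and 20.9% fell for the knockout, 8.32% and 7.69% for the mutant, and 27.7% and 27.2% for overexpression, so that several of these counts are near the background. Hrk, a BH3-only gene, rose 1.52-fold in the knockout, 1.61-fold in the mutant and 2.78-fold in overexpression (adjusted p = 3.41e-06, 3.54e-06 and 1.11e-11 by edgeR). Bmf, another BH3-only gene, rose 1.55-fold in the knockout and 2.33-fold in overexpression. It lies on chromosome 2, where the median of all genes was 0.32 in overexpression. The part of that shift in the Bmf value was not tested. Of the 18 genes of this list on other chromosomes, 6 rose and 4 fell in overexpression, with a median of 0.11. Bcl2l11, which encodes Bim, fell 1.47-fold in the knockout and 1.29-fold in the mutant (adjusted p = 6.96e-08 and 3.93e-05).

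Cell cycle genes that p53 represses through p21 and the DREAM complex were tested as 19 genes. In the knockout 5 rose and 3 fell (median 0.00), in the mutant 4 rose and none fell (median 0.07), and in overexpression 14 rose and 3 fell (median 0.15). Of all genes, 24.2% rose and 20.9% fell for the knockout, 8.32% and 7.69% for the mutant and 27.7% and 27.2% for overexpression. The 4 largest rises in overexpression were those of Mybl2 (1.75-fold), Aurka (1.70-fold), E2f1 (1.57-fold) and Bub1 (1.42-fold), all on chromosome 2, where the median of all genes was 0.32. Of the 15 genes elsewhere, 10 rose and 3 fell, with a median of 0.15. Of 17 further nucleotide excision repair genes, 4 rose and 4 fell in the knockout, 2 rose and none fell in the mutant, and 6 rose and 5 fell in overexpression, with medians of 0.05, 0.01 and 0.00. In the knockout and overexpression these repair counts are near the shares of all genes. The median of the 32 genes was below those of the further target, regulator, apoptosis, cell cycle and repair lists in every line. Among the marker lists, primitive endoderm had a lower median in the knockout (-2.46) and overexpression (-0.75), and neural markers in overexpression (-0.61). All other marker medians lay above that of the 32 genes in the same line. None of these differences was tested.

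**Figure D5:**
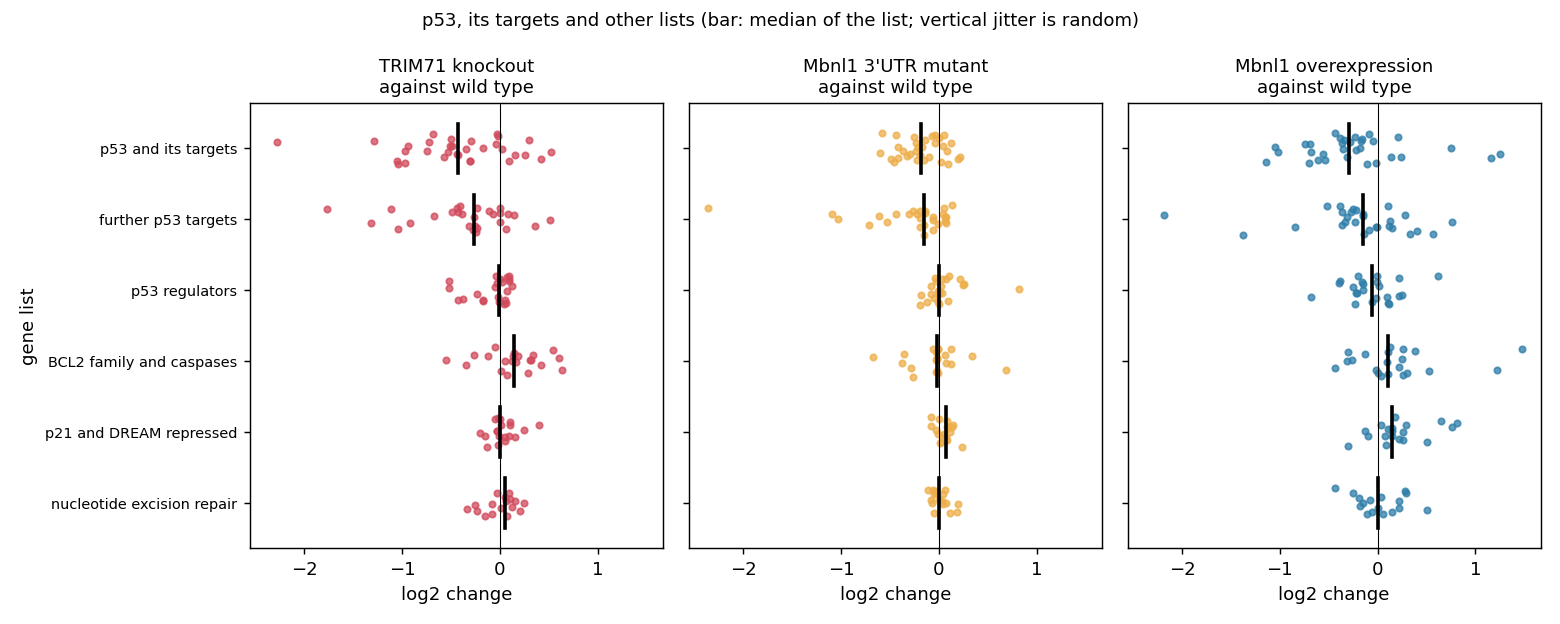
Log2 change from wild type (horizontal axis) of each tested gene in p53 and its targets and in 5 other lists (rows), for the knockout, the mutant and overexpression; black bars are list medians, and the vertical scatter within a row is random. The medians of p53 and its targets are -0.43, -0.18 and -0.30, and those of the further targets -0.26, -0.15 and -0.15, while the other lists lie between -0.06 and 0.15.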

How the data were processed

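The deposited tables hold the authors' raw counts of reads per gene, not normalized, in 8 libraries. Alignment was to mm10 with STAR 2.5.0, per the submitters' processing notes. No annotation release or strand setting is given in the sources used here. Group labels came from the sample descriptions. Gene identifiers were matched to symbols without their version suffix (42462 of 43346).

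Genes were filtered with filterByExpr (minimum count 10, total 15), which kept 18055 of the 27979 genes that had counts. After TMM scaling, 1 robust quasi-likelihood model of all 4 groups (4 residual degrees of freedom) was fitted with edgeR 4.0.16 in R 4.3.3 (limma 3.58.1). P-values were adjusted by Benjamini-Hochberg over all tested genes. The procedure was tested on simulated data. Alternatives were median-ratio scaling, library size alone, no filter, a filter at 1 CPM, 2 groups alone, a replicate block, DESeq2 1.42.0 and leaving out each library. Replicate numbers did not pair the libraries (correlations of deviations -0.0343 to 0.06).

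All members are named. Of each other list, up to 4 called genes per comparison could be named, by size of change. The members and lists were chosen with earlier results of these data known. Trim71 and Mbnl1 check the labels. Some genes of the lists are not reported here.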

Additional observations from a re-analysis of the deposited data

How the results depend on the processing

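Numbers of p53 genes called lower stayed within 1.5 times the reported ones under every alternative run. Counts called higher are small and moved more. Leaving out 1 library gave 2 to 5 in the knockout (5 reported), 0 to 1 in the mutant (1 reported), 2 to 4 in the knockout against the mutant (2) and 1 to 3 in the knockout against overexpression (2). Calls over all genes also changed when 1 library was left out. In the mutant 2 of the p53 genes were higher with no filter on low counts and 0 in a fit of the 2 groups alone. Over all genes these settings gave 1790 of 27979 and 1037 of 17234, against 1502 of 18055 in the main fit. With library size alone, 1 p53 gene was higher in the knockout than in overexpression. Over all genes 4191 of 18055 were higher with that scaling, against 4974 in the main fit. With a replicate block, higher and lower calls numbered 4 and 22 for the knockout, 1 and 14 for the mutant, 6 and 21 for overexpression, 2 and 21 for knockout against mutant, 7 and 17 for overexpression against mutant and 2 and 19 for knockout against overexpression. Of 18055 genes, that block gave 4283 higher and 3668 lower for the knockout, 1421 and 1323 for the mutant and 4948 and 4867 for overexpression. It gave 4325 and 3735 for knockout against mutant, 4766 and 4532 for overexpression against mutant and 4897 and 4835 for knockout against overexpression. Counts of p53 genes without the 2 genes of chromosome 2, an alternative chosen after seeing the data, stayed within 1.5 times as well.

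Every value that changed sign belonged to a gene that was not called, and the causes were not tested. In the knockout these were Fas (log2 -0.17 without wild-type replicate 2, 0.60 without replicate 1) and Xpc (0.05 without wild-type replicate 2, 0.01 without knockout replicate 1, -0.10 without wild-type replicate 1). In the mutant they were, without wild-type replicate 1, Aen (0.02), Xpc (-0.03), Fdxr (-0.01) and Dram1 (-0.19), which were at -0.09, 0.12, 0.06 and 0.22 without wild-type replicate 2, and also Xpc (-0.02 without mutant replicate 1) and Dram1 (-0.21 without mutant replicate 2, -0.01 with library size alone). In overexpression they were Trp53 (0.03 with library size alone, 0.01 without wild-type replicate 1, -0.05 without replicate 2) and Pidd1 (0 with library size alone). Between knockout and mutant they were Trp53 (-0.01 with median-ratio scaling, 0 with no filter, with 2 groups alone, in DESeq2 and without mutant replicate 1), Cdkn1a (-0.01 without mutant replicate 1, 0.31 without replicate 2) and Ddb2 (-0.02 without knockout replicate 2, 0.13 without replicate 1). Between overexpression and mutant it was Fas (0.07 without overexpression replicate 1, -0.43 without replicate 2). Between knockout and overexpression, Bax and Perp were at 0 with median-ratio scaling, with 2 groups alone and in DESeq2, Bax at 0.01 without knockout replicate 1 and 0.02 without overexpression replicate 2, Perp at 0.02 without knockout replicate 2 and 0.06 without overexpression replicate 2 (-0.06 without replicate 1), and Polk at 0.03 without knockout replicate 2. With 2 libraries a group, depth limits Fas, at 8 to 18 counts, and Dram1 in the knockout, at 19 and 21 counts. The spread between libraries limits Dram1 and Zmat3.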
